A study of Mus musculus with 16 samples.

Results

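Schwann cells are the glia of peripheral nerves, and the genes described here encode 8 of their best known products. They are Sox10, Foxd3, Erbb3, S100b, Pmp22, Mbp, Mag and Prx, chosen by name with no threshold on their values, though with earlier results of these data known. Of the 8 genes named, 7 were rows of the authors' normalized table of 21220 genes, and Foxd3 was not. In the authors' read counts, which hold 48709 gene rows, Foxd3 had 0 to 3 reads in each library, so its values are given but not tested. The other 7 genes were among the 17125 genes with enough reads to test.

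The material was organ of Corti, which carries the hair cells of the cochlea, dissected from C57BL/6 mice at postnatal day 0 and cultured for 3.5 days. It was compared in 4 groups of 4 RNA-seq libraries. These were cultures heterozygous for a Rest allele without exon 4 given 2 nM FK228, cultures of that genotype given solvent (0.1% DMSO), wild-type cultures given 2 nM FK228, and wild-type cultures given solvent. FK228, also named romidepsin, inhibits class I histone deacetylases, and REST is a repressor of neuronal genes that recruits such enzymes. Each exposure to drug or solvent ran from day 1 to 1.5 and again from day 3 to 3.5 in culture. One library stood for RNA pooled from 6 to 8 cultures, and the labels do not say whether pools of a group had separate litters. The p-values below therefore reflect how these pools differ, which may be technical. Nerve fibres enter the organ of Corti from the spiral ganglion with their glia, and how much of that tissue a culture kept is not stated. In bulk RNA, fewer cells of a type and less RNA per cell cannot be told apart.

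Libraries held 12361027 to 23611571 reads in genes, with the lowest totals in heterozygous cultures with FK228 and the highest in wild-type solvent cultures. ERCC spike-in RNA, synthetic transcripts whose amount per sample the labels do not give, took 0.350% ± 0.0347 (SD, n = 4) of reads in heterozygous FK228 libraries, against 0.200% ± 0.0280 in heterozygous solvent libraries (exact two-sided permutation p = 0.0286, adjusted p = 0.0571 over 4 comparisons, where 0.0286 is the smallest p possible with 4 against 4). The share was 0.205% ± 0.0233 in wild-type FK228 libraries, against 0.178% ± 0.0175 in wild-type solvent libraries (exact p = 0.143). Levels are given as CPM, a library's reads of a gene scaled to its total of reads in genes, with TMM factors that centre on the bulk of transcripts. Scaling to the spike-ins instead shifted the centre of all genes tested: their median log2 fold change between FK228 and solvent became -0.72 in heterozygous and -0.16 in wild-type cultures, and that between heterozygous and wild type became -0.18 with solvent and -0.74 with FK228. Changes below are therefore relative to the other transcripts of the same libraries. Rest, the altered gene, averaged 81.0 ± 4.80 CPM in heterozygous FK228 libraries and 88.3 ± 7.64 CPM in heterozygous solvent libraries. Wild-type libraries averaged 73.8 ± 4.53 CPM with FK228 and 81.4 ± 5.42 CPM with solvent (SD, n = 4 each). Rest passed the test in none of these 4 comparisons (adjusted p 0.141 to 0.654), and its whole-gene counts do not show the missing exon. Genes of hair cells and supporting cells, which define the organ of Corti, were present in every library, as given further on.

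Schwann cells arise from the neural crest under the transcription factors SOX10 and FOXD3. They depend on neuregulin from axons, which they sense through the paired receptors ERBB2 and ERBB3, and SOX10 with EGR2 switches on the myelin genes. In the cochlea they wrap the fibres of spiral ganglion neurons. Several of these genes are not particular to Schwann cells: SOX10 and ERBB3 are also made by melanocytes, SOX10 by supporting cells of the cochlea, and PMP22 by many fibroblasts and epithelia.

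Most of the measured genes were lower with FK228 in both genotypes, while those of the axon-facing adhesion protein MAG and of periaxin were higher (periaxin's in heterozygous cultures only with TMM scaling). In heterozygous cultures 2 of the 7 genes tested rose and 5 fell, in a comparison where 48.4% of all genes tested passed the threshold of an adjusted p of 0.05 (23.8% higher and 24.7% lower). In wild-type cultures 2 rose and 4 fell, where 49% of all genes passed (23.7% higher and 25.3% lower). The largest fall was that of Pmp22 and the largest rise that of Mag, in both genotypes. With spike-in scaling 1 rose and 5 fell in heterozygous cultures, and 2 rose and 4 fell in wild type. The median log2 fold change of the 7 genes was -0.57 in heterozygous and -0.49 in wild-type cultures, against 0.00 in heterozygous and -0.01 in wild type over all genes tested. No FK228 library overlapped the solvent libraries of its genotype for these 7 genes in heterozygous cultures (42.6% of all genes tested had no overlap), and the same held for 6 of them, without Mbp, in wild type (44.7% of all genes).

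**Figure D1:**
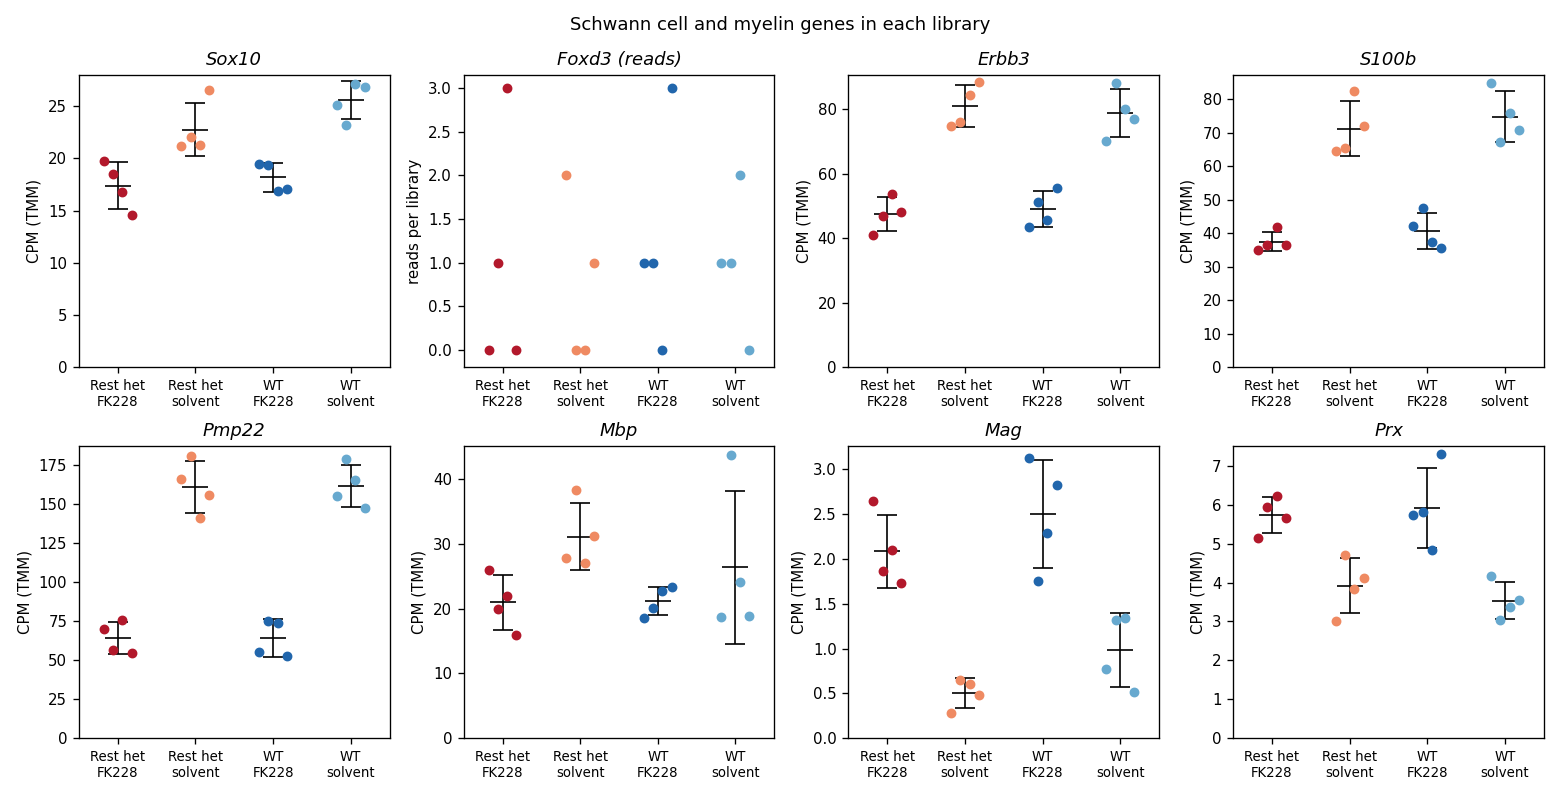
Level of each gene in each library, in CPM with TMM scaling (for Foxd3, reads per library), by group. Points are libraries, and bars are the mean ± SD of 4 libraries. Pmp22, Erbb3 and S100b are lower in every FK228 library than in every solvent library, Mag and Prx are higher with FK228 in both genotypes (on this scale; with spike-in scaling the log2 fold change of Prx in heterozygous cultures is -0.16, adjusted p = 0.505), and 1 wild-type solvent library has an Mbp level of 43.7 CPM.

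Sox10 encodes the SoxE factor that Schwann cells need at every stage (ENSMUSG00000033006, chromosome 15, 79154908 to 79165240, minus strand, GRCm38). In heterozygous cultures it had 19.7, 18.5, 16.8 and 14.6 CPM with FK228, against 21.2, 22.0, 21.3 and 26.6 CPM in solvent. Wild-type cultures had 19.5, 19.3, 16.8 and 17.04 CPM with FK228, against 25.1, 23.2, 27.1 and 26.8 CPM in solvent. Within each genotype every FK228 library lay below every solvent library. The log2 fold change was -0.39 ± 0.11 (SE, adjusted p = 0.00829) in heterozygous and -0.49 ± 0.11 (adjusted p = 0.00124) in wild-type cultures, the smallest falls among the genes that passed in both. The highest of the heterozygous solvent libraries stood apart at 26.6 CPM, and without it the change in heterozygous cultures was the smallest of 16 fits that each left out 1 library, at -0.30 (adjusted p = 0.0396).

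Foxd3, a forkhead factor of the neural crest that holds glial precursors back from other fates (ENSMUSG00000067261, chromosome 4, 99656299 to 99658622, plus strand), was near the limit of detection. Its reads summed to 4 over the heterozygous FK228, 3 over the heterozygous solvent, 5 over the wild-type FK228 and 4 over the wild-type solvent libraries. No library had more than 3 reads, the floor below which no fold is given, so a difference was not detectable at this depth.

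Erbb3 encodes the neuregulin-binding receptor of Schwann cells, which signals only with a partner kinase (ENSMUSG00000018166, chromosome 10, 128567523 to 128589652, minus strand). With FK228 the heterozygous libraries held 40.8, 47.0, 53.6 and 48.2 CPM, against 74.7, 76.0, 84.2 and 88.2 CPM in solvent. In wild type they held 43.6, 51.2, 45.7 and 55.6 CPM with FK228, against 70.1, 88.0, 80.0 and 77.0 CPM in solvent. The highest FK228 library, 55.6 CPM, was below the lowest solvent library, 70.1 CPM. Its log2 fold change was -0.77 ± 0.10 (SE, adjusted p = 4.82e-06) in heterozygous and -0.68 ± 0.10 (adjusted p = 1.69e-05) in wild-type cultures.

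S100b encodes a small calcium-binding protein used as a stain for Schwann cells (ENSMUSG00000033208, chromosome 10, 76253853 to 76261159, plus strand). Heterozygous cultures had 35.1, 36.5, 41.8 and 36.7 CPM with FK228, against 64.7, 65.5, 82.4 and 72.0 CPM in solvent. The wild-type libraries had 42.1, 47.7, 37.6 and 35.7 CPM with FK228, against 84.8, 67.2, 75.9 and 70.9 CPM in solvent. The highest FK228 library, 47.7 CPM, was below the lowest solvent library, 64.7 CPM. The log2 fold change was -0.92 ± 0.11 (SE, adjusted p = 1.17e-06) in heterozygous and -0.88 ± 0.10 (adjusted p = 1.99e-06) in wild-type cultures. S100b overlaps Dip2a on the other strand, but their exons do not overlap.

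Pmp22 encodes a membrane protein of compact myelin whose extra or missing copy causes inherited neuropathy in humans (ENSMUSG00000018217, chromosome 11, 63128982 to 63159547, plus strand). It had 70.2, 56.7, 75.8 and 54.8 CPM in heterozygous FK228 libraries, against 166, 181, 141 and 156 CPM in heterozygous solvent libraries. It had 55.1, 75.2, 73.9 and 52.8 CPM in wild-type FK228 libraries, against 155, 179, 166 and 148 CPM in solvent libraries of wild type. Group means of the genotypes lay close together, at 64.4 ± 10.3 CPM for heterozygous and 64.2 ± 11.9 CPM for wild-type libraries with FK228, and at 161 ± 16.9 CPM for heterozygous and 162 ± 13.5 CPM for wild-type libraries with solvent (SD, n = 4 each). Every FK228 library was below every solvent library. The log2 fold change with FK228 was -1.32 ± 0.13 (SE, adjusted p = 1.54e-07) in heterozygous and -1.33 ± 0.13 (adjusted p = 1.49e-07) in wild-type cultures, where the level was 2.52-fold lower.

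The 250 bases before the farthest upstream RefSeq start site are shown for Pmp22 and S100b, the genes with the largest falls that have a promoter window here. They lie at chr11:63128732-63128981 and chr10:76253586-76253835 (GRCm38.p6, plus strand of both), 5′ to 3′:
Pmp22: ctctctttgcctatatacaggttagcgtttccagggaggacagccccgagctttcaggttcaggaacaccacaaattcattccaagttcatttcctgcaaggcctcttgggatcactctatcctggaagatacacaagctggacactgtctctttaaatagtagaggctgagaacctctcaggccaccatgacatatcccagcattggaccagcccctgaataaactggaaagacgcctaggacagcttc
S100b: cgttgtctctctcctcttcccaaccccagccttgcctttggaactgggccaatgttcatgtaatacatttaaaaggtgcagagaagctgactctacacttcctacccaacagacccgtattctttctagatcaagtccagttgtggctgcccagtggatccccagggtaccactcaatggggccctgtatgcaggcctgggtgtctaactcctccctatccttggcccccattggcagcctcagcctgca
Neither window holds the SoxE core ACAAAG, the EGR core GTGGGCG or the E box CACGTG on either strand, which says only that these letters are not in these windows.

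Mbp encodes myelin basic protein, which holds the inner faces of the myelin membrane together (ENSMUSG00000041607, chromosome 18, 82475146 to 82585637, plus strand). In heterozygous cultures it had 25.9, 20.0, 22.0 and 15.9 CPM with FK228, against 27.8, 38.4, 27.0 and 31.2 CPM in solvent. In wild type it had 18.6, 20.1, 22.6 and 23.4 CPM with FK228, against 18.8, 43.7, 24.2 and 18.8 CPM in solvent. The heterozygous groups did not overlap, the wild-type groups did, and replicate 2 of wild-type solvent was far above the other libraries of its group. Mbp fell in heterozygous cultures (log2 fold change -0.57 ± 0.22, SE, adjusted p = 0.0405), a call that was lost when heterozygous FK228 replicate 3, 4 or 5 or heterozygous solvent replicate 2 or 5 was left out (adjusted p 0.0607 to 0.125). In wild type the change was -0.31 ± 0.22 and did not pass (adjusted p = 0.249). Without wild-type solvent replicate 2 it was 0.04 ± 0.16 (adjusted p = 0.854). The FK228 effects on Mbp in the 2 genotypes were not shown to differ (difference of log2 fold changes -0.26 ± 0.31, adjusted p = 0.994).

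Mag encodes myelin-associated glycoprotein, an adhesion protein on the innermost wrap that faces the axon (ENSMUSG00000036634, chromosome 7, 30899176 to 30914873, minus strand). It was a low gene, with 35, 27, 31 and 22 reads in heterozygous FK228 libraries, against 4, 10, 9 and 7 reads in heterozygous solvent libraries. Wild-type libraries had 55, 29, 38 and 50 reads with FK228, against 17, 24, 24 and 9 reads in solvent. As CPM, heterozygous cultures averaged 2.08 ± 0.404 CPM with FK228 and 0.505 ± 0.167 CPM in solvent, and wild-type cultures 2.4999 ± 0.605 CPM with FK228 and 0.988 ± 0.412 CPM in solvent (SD, n = 4 each). Every FK228 library was above every solvent library in CPM. Mag rose in heterozygous cultures (log2 fold change 2.02 ± 0.36, SE, adjusted p = 0.000163) and in wild type (1.34 ± 0.32, adjusted p = 0.00215), and it also rose with spike-in scaling (1.35 in heterozygous, 1.14 in wild type).

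Prx encodes periaxin, a scaffold that links the outer Schwann cell membrane to the basal lamina (ENSMUSG00000053198, chromosome 7, 27499324 to 27520214, plus strand). In heterozygous cultures it had 5.14, 5.93, 6.22 and 5.67 CPM with FK228, against 3.01, 4.71, 3.84 and 4.11 CPM in solvent. In wild-type cultures it had 5.73, 5.80, 4.83 and 7.30 CPM with FK228, against 4.16, 3.03, 3.37 and 3.56 CPM in solvent. The FK228 libraries lay above the solvent libraries in each genotype. Prx rose in wild type (log2 fold change 0.74 ± 0.18, SE, adjusted p = 0.00213) and, with TMM scaling, in heterozygous cultures (0.55 ± 0.18, adjusted p = 0.0182), where spike-in scaling turned the direction (-0.16, adjusted p = 0.505). The heterozygous call was also lost without heterozygous solvent replicate 1 (0.44, adjusted p = 0.0646). Exons of Prx overlap those of Gm15541, an antisense RNA. The counts do not use strand, so reads in the stretch that both share cannot be assigned to either gene. Gm15541 itself rose, to 4.30 ± 0.840 CPM in heterozygous FK228 libraries, against 1.81 ± 0.452 CPM in heterozygous solvent libraries, and to 5.14 ± 1.57 CPM in wild-type FK228 libraries, against 2.33 ± 0.856 CPM in wild-type solvent libraries (log2 fold change 1.24 in heterozygous, adjusted p = 0.0021, and 1.14 in wild type, adjusted p = 0.00268). With spike-in scaling its change in heterozygous cultures was 0.54 and did not pass (adjusted p = 0.137). Its part in the Prx result was not tested.

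The same stretch of promoter is shown for Mag and Prx, the genes that rose, at chr7:30914923-30915172 (minus strand) and chr7:27499074-27499323 (plus strand) of GRCm38.p6, 5′ to 3′, with a match to the SoxE core in capitals:
Mag: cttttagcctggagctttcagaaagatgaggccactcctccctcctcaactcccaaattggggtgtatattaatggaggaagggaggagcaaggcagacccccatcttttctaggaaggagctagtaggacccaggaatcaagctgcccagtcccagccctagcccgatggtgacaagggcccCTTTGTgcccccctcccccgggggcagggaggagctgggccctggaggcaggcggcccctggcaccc
Prx: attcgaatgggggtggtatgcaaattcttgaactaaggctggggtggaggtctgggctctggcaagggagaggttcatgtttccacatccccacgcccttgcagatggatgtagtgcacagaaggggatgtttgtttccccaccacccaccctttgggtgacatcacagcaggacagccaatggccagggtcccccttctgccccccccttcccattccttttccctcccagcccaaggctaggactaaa
The capitals in Mag are the SoxE core ACAAAG read on the other strand, as CTTTGT, starting 67 bases before the start site. The same match lies in a second of the 3 windows of Mag, which overlaps the first, and 16.5% of all 32851 promoter windows of this length hold the motif. No other window of the 5 genes with one held it, and only Foxd3 had an E box, a motif present in 6.02% of windows. The EGR core, present in 7.02% of windows, was in none of the 10 windows of these genes. The motifs do not overlap one another in these windows, and a match describes letters only.

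The genotype comparisons asked what the Rest allele changed. Of the 7 genes tested, 0 differed between heterozygous and wild-type cultures in solvent, where 2.03% of all genes passed, and 0 differed with FK228, where 2.14% passed. At an unadjusted p of 0.05, 1 of the 7 passed in solvent, namely Mag, and 0 with FK228, beside 11.3% of all genes in solvent and 12.9% with FK228. DESeq2 and limma voom also called 0 in both. Mag had a log2 fold change of -0.95 ± 0.37 (SE, adjusted p = 0.296) between heterozygous and wild-type solvent libraries. The solvent libraries of the genotypes overlapped. The other 6 genes had log2 fold changes of -0.17 (Sox10) to 0.24 (Mbp) in solvent, and Mbp reached 0.60 (adjusted p = 0.0871) without wild-type solvent replicate 2. With FK228 the 7 genes ranged from -0.26 (Mag) to 0.00 (Pmp22). With spike-in scaling the 7 genes were all lower in heterozygous than in wild-type cultures with FK228, by -0.74 (Mbp) to -0.96 (Mag), beside a median of -0.74 over all genes tested. On that scale 12857 of all 17125 genes were called in this comparison.

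The interaction test, of whether the FK228 effect differed between genotypes, called 0 of the 7 genes and 0.0234% of all genes. At an unadjusted p of 0.05 it called 0 of the 7 and 5.81% of all genes, and DESeq2 after adjustment also called 0 of the 7. The largest interaction among them was that of Mag, 0.68 ± 0.49 (SE, adjusted p = 0.951), and the smallest that of Pmp22, 0.01 ± 0.18 (adjusted p = 0.998). With spike-in scaling 2 genes passed, Erbb3 (-0.65, adjusted p = 0.0378) and S100b (-0.62, adjusted p = 0.0352), beside a median of -0.56 over all genes tested. The interaction test on that scale called 4069 of all 17125 genes.

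**Figure D2:**
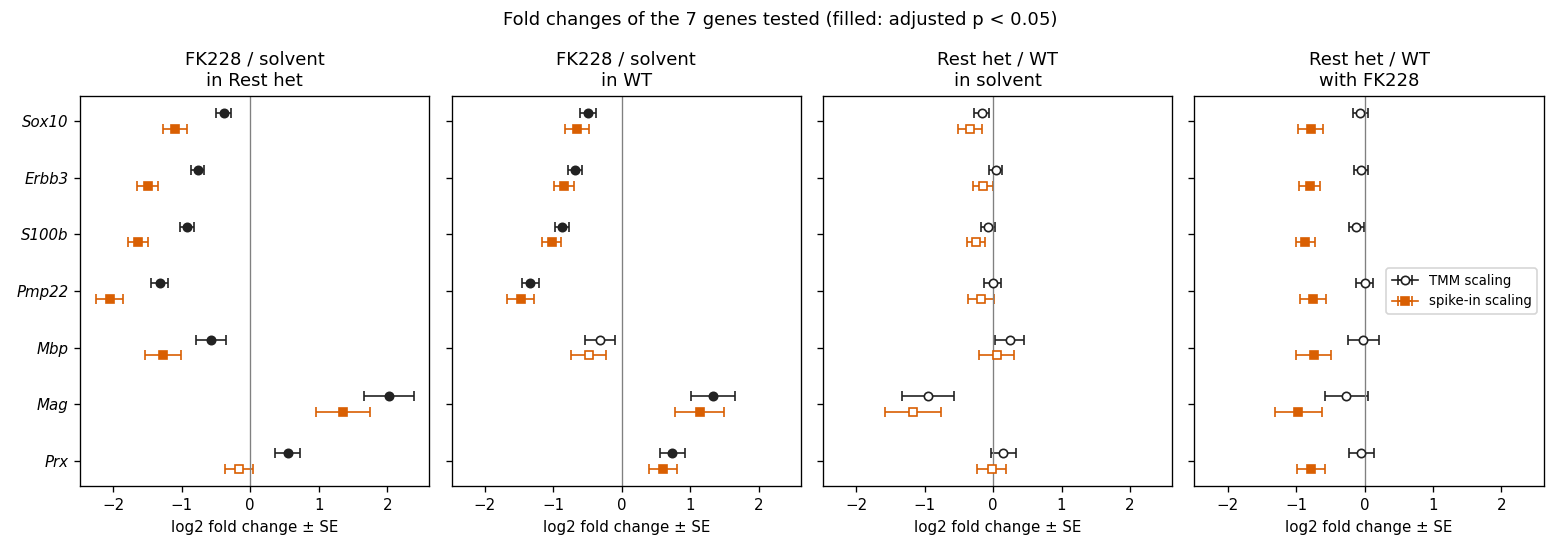
Log2 fold change ± SE of the 7 genes tested in 4 comparisons, with TMM scaling (circles) and spike-in scaling (squares), filled where the adjusted p is under 0.05. With FK228 Pmp22, S100b, Erbb3 and Sox10 lie left of 0 in both genotypes and Mag lies right of 0, while Prx in heterozygous cultures is at 0.55 with TMM and -0.16 with spike-in scaling; between genotypes the TMM values have open symbols.

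Ordered by mean level, the 4 groups fell into a solvent pair and an FK228 pair for each of the 7 genes. Neighbours in that order differed only where the pairs met, and for Mbp no neighbours differed beyond their spread. For Sox10 that step was between heterozygous solvent and wild-type FK228 (log2 difference 0.32, adjusted p = 0.0211, in a comparison that called 50.9% of all genes), and it was not called without heterozygous solvent replicate 5 or wild-type FK228 replicate 4 or 7 (adjusted p up to 0.0921), nor with spike-in scaling, nor in 3 of 10 other alternatives (no filter, the replicate block and the share of reads outside genes, adjusted p up to 0.125). For Mag the order was wild type with FK228, heterozygous with FK228, wild type in solvent and heterozygous in solvent, and the step lay between the second and the third (log2 difference 1.07, adjusted p = 0.011, where 50.7% of all genes were called). Divided by exon length, levels in wild-type solvent libraries were highest for Pmp22 (68.7 ± 5.74 CPM per kb, SD, n = 4) and S100b (50.3 ± 5.12 CPM per kb). Erbb3 (13.1 ± 1.23 CPM per kb) and Sox10 (8.38 ± 0.588 CPM per kb) came next, above Mbp (3.11 ± 1.40 CPM per kb). Prx (0.632 ± 0.0851 CPM per kb) and Mag (0.243 ± 0.101 CPM per kb) were lowest among those tested.

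Between libraries of the same group the genes did not vary as one. Over the 21 pairs, Pearson's r of log2 CPM after subtracting group means (16 libraries, which share their depth and scaling) had a median of 0.07. It ranged from -0.46 for Mbp with S100b to 0.61 for Mbp with Mag, and 2 pairs were above 0.5, the other being Mbp with Pmp22 (0.51). Across all 16 libraries, where treatment sets most of the spread, the genes most like Sox10 in log2 CPM were Pomt2 (r = 0.95), Nfic (0.95) and Smarca4 (0.94) of 15194 genes with a mean of at least 1 CPM. Erbb3 was most like Nsd1 (0.97), Gstz1 (0.97) and Atf5 (0.96). Mbp was most like Thbs1 (0.89), S100a11 (0.89) and Prss22 (0.86).

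Lineage regulators around SOX10 held 1 gene that rose and several that fell. Of 13 tested, 1 rose and 5 fell with FK228 in heterozygous and 1 rose and 5 fell in wild-type cultures (1 and 10 in heterozygous, 1 and 6 in wild type with spike-in scaling), with a median of -0.50 in heterozygous and -0.54 in wild-type cultures. The 6 of 13 called in each genotype stand beside 48.4% of all genes in heterozygous and 49% in wild-type cultures, so the number called is near that of genes in general, and the same shares apply to the lists that follow. These are shares with TMM scaling. Spike-in counts, here and in those lists, stand beside 11524 of all 17125 genes called in heterozygous and 6524 in wild-type cultures. The one that rose was Pou3f1, which encodes the POU factor OCT6 of promyelinating Schwann cells. It averaged 5.17 ± 1.27 CPM in heterozygous FK228 libraries, against 0.488 ± 0.274 CPM in heterozygous solvent libraries, and 8.98 ± 0.639 CPM in wild-type FK228 libraries, against 1.32 ± 0.366 CPM in wild-type solvent libraries (SD, n = 4 each). It rose by 3.38 ± 0.32 (log2, SE) in heterozygous (adjusted p = 1.22e-07) and 2.75 ± 0.27 in wild-type cultures (adjusted p = 1.98e-07). Zeb2, a zinc finger factor that Schwann cells need to myelinate, fell on the log2 scale by 1.82 in heterozygous (adjusted p = 3.8e-07) and 1.46 in wild-type cultures (adjusted p = 4.03e-06). Sox2, a factor of immature Schwann cells that is not particular to them, fell by 0.75 in heterozygous and 0.86 in wild-type cultures. Which cells of the culture made the RNA of the genes in this list and those that follow was not measured. Egr2, the master regulator of myelination, did not pass, with -0.02 ± 0.16 in heterozygous (adjusted p = 0.926) and 0.26 ± 0.16 in wild-type cultures (adjusted p = 0.189), and it was chosen for mention after its values were seen.

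Of the 13 regulators 1 was called between genotypes in solvent and 1 with FK228, beside 2.03% of all genes in solvent and 2.14% with FK228. In solvent Pou3f1 was lower in heterozygous than in wild-type cultures (log2 fold change -1.43 ± 0.35, adjusted p = 0.0353), a call lost in 8 of 16 fits that left out 1 library and in 4 of 11 other alternatives (adjusted p 0.00485 to 0.219 over these 11). Pou3f2, a related POU factor, was lower with FK228 (-0.77 ± 0.14, adjusted p = 0.00438), at 15.2 ± 1.36 CPM over heterozygous and 25.9 ± 3.56 CPM over wild-type FK228 libraries. That call was lost with the replicate number as a block (adjusted p = 0.0696).

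Neuregulin receptors and other axon signals included genes that fell, as Erbb3 did, and genes that rose. Of 9 tested, 2 rose and 5 fell in heterozygous cultures (0 and 7 with spike-in scaling), and 1 rose and 4 fell in wild type (1 and 4), with a median of -0.25 in heterozygous and -0.03 in wild-type cultures, beside 48.4% of all genes called in heterozygous and 49% in wild-type cultures by TMM scaling. Erbb2, the kinase partner of ERBB3, fell on the log2 scale by 0.63 in heterozygous (adjusted p = 3.13e-05) and 0.50 in wild-type cultures (adjusted p = 0.000263). Gab1, an adaptor of ERBB signalling, fell by 0.97 in heterozygous and 0.91 in wild-type cultures. Adgrg6, the adhesion receptor also called GPR126 that starts myelination, fell by 0.81 in heterozygous and 0.68 in wild-type cultures. Ptpn11, which encodes the phosphatase SHP2, rose in wild type (0.63, adjusted p = 0.000256) and with TMM scaling in heterozygous cultures (0.38, adjusted p = 0.0132), where spike-in scaling gave -0.35 (adjusted p = 0.0626).

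Other genes of Schwann cells and their precursors moved both ways. Of 13 tested, 3 rose and 6 fell in heterozygous (2 and 10 with spike-in scaling), and 3 rose and 6 fell in wild-type cultures (2 and 6), with a median of -0.73 in heterozygous and -0.45 in wild-type cultures, beside 48.4% of all genes called in heterozygous and 49% in wild-type cultures by TMM scaling. Dhh, the hedgehog ligand that Schwann cells send to the perineurium, averaged 4.24 ± 0.71 CPM in heterozygous FK228 libraries, against 0.362 ± 0.31 CPM in heterozygous solvent libraries. In wild type it averaged 4.68 ± 1.36 CPM with FK228 and 0.915 ± 0.286 CPM in solvent (SD, n = 4 each). The log2 rise was 3.54 ± 0.43 (SE) in heterozygous (adjusted p = 2.53e-06) and 2.34 ± 0.37 in wild-type cultures (adjusted p = 4.06e-05). Ncam1, a cell adhesion molecule of immature and non-myelinating Schwann cells and of neurons, rose by 1.22 in heterozygous and 1.13 in wild-type cultures. Gfap, an intermediate filament of non-myelinating Schwann cells, fell by 2.55 in heterozygous (adjusted p = 2.52e-05) and 1.81 in wild-type cultures (adjusted p = 0.000317). Cmtm5, a membrane protein of myelinating glia, fell by 0.96 in heterozygous and 0.85 in wild-type cultures. Fabp7, a fatty acid-binding protein of Schwann cell precursors, fell by 1.42 in heterozygous and 0.88 in wild-type cultures with FK228, and with FK228 it was lower in heterozygous than in wild-type cultures (-0.88 ± 0.22, adjusted p = 0.0386, lost in 7 of 16 fits that left out 1 library).

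Among other proteins of myelin and its junctions 12 of 15 were tested, since Pmp2 had 0 reads in every library and Gjb1 and Cldn19 too few. In heterozygous cultures 3 rose and 6 fell (0 and 8 by spike-in scaling), while in wild type 4 rose and 7 fell (2 and 7), with a median of -0.35 in heterozygous and -0.38 in wild-type cultures, beside 48.4% of all genes called in heterozygous and 49% in wild-type cultures by TMM scaling. Mal, a proteolipid of myelin, averaged 21.9 ± 2.79 CPM in heterozygous FK228 libraries, against 81.3 ± 12.7 CPM in heterozygous solvent libraries. In wild type it averaged 23.0 ± 4.39 CPM with FK228 and 73.2 ± 24.05 CPM in solvent (SD, n = 4 each). The log2 fold change was -1.89 ± 0.20 (SE) in heterozygous (adjusted p = 3.98e-07) and -1.67 ± 0.19 in wild-type cultures (adjusted p = 1.52e-06). Cnp, which encodes a nucleotide phosphodiesterase of non-compact myelin, rose by 0.95 in heterozygous (adjusted p = 5.24e-06) and 0.77 in wild-type cultures (adjusted p = 5.22e-05), though scaling to spike-ins gave 0.26 in heterozygous cultures (adjusted p = 0.0816). Dag1, the dystroglycan that periaxin is tied to through a dystrophin-related protein, rose by 0.55 in heterozygous and 0.70 in wild-type cultures, but in heterozygous cultures spike-in scaling turned it to -0.15 (adjusted p = 0.338).

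Basal lamina genes, which build the sheet around each Schwann cell and its receptors, fell or did not pass in heterozygous cultures. There 0 of 9 rose and 5 fell (0 and 9 by spike-in scaling), while in wild type 2 rose and 4 fell (0 and 4), with a median of -0.46 in heterozygous and -0.26 in wild-type cultures, beside 48.4% of all genes called in heterozygous and 49% in wild-type cultures by TMM scaling. By spike-in scaling 11524 of all 17125 genes were called in heterozygous and 6524 in wild-type cultures. Itgb4, a laminin receptor chain of mature Schwann cells, fell by 0.84 in heterozygous and 1.11 in wild-type cultures, and Itgb1, the common beta chain, by 0.53 in heterozygous and 0.57 in wild-type cultures. Lama4, a laminin chain, fell by 0.46 in heterozygous and 0.54 in wild-type cultures. Lama2, the laminin chain lacking in merosin-deficient muscular dystrophy, fell by 0.58 in heterozygous cultures and had -0.26 ± 0.14 in wild type (adjusted p = 0.119). Itga6, an integrin chain that pairs with ITGB4, was lower in heterozygous than in wild-type cultures with FK228 (-0.31 ± 0.08, adjusted p = 0.0344, lost in 6 of 16 fits that left out 1 library).

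Enzymes of myelin lipid synthesis leaned the other way with TMM scaling. Of 12 tested, 6 rose and 2 fell in heterozygous cultures, where spike-in scaling gave 1 and 6, and 5 rose and 2 fell in wild type (2 and 2), with a median of 0.21 in heterozygous and 0.29 in wild-type cultures, beside 48.4% of all genes called in heterozygous and 49% in wild-type cultures by TMM scaling. Fa2h, which adds the hydroxyl group to myelin fatty acids, averaged 2.94 ± 0.735 CPM in heterozygous FK228 libraries, against 0.639 ± 0.348 CPM in heterozygous solvent libraries, and 2.86 ± 0.477 CPM in wild-type FK228 libraries, against 0.487 ± 0.255 CPM in wild-type solvent libraries. The log2 rise was 2.18 ± 0.40 (SE) in heterozygous (adjusted p = 0.000215) and 2.53 ± 0.40 in wild-type cultures (adjusted p = 4.81e-05). Cers2, a ceramide synthase for very long chains, fell by 0.82 in heterozygous and 0.80 in wild-type cultures. Fasn, fatty acid synthase, fell by 0.60 in heterozygous and 0.43 in wild-type cultures. Fdft1, squalene synthase, rose by 0.45 in heterozygous and 0.48 in wild-type cultures with TMM scaling, but spike-in scaling gave -0.27 (adjusted p = 0.0957) in heterozygous cultures and 0.32 (adjusted p = 0.0757) in wild type.

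**Figure D3:**
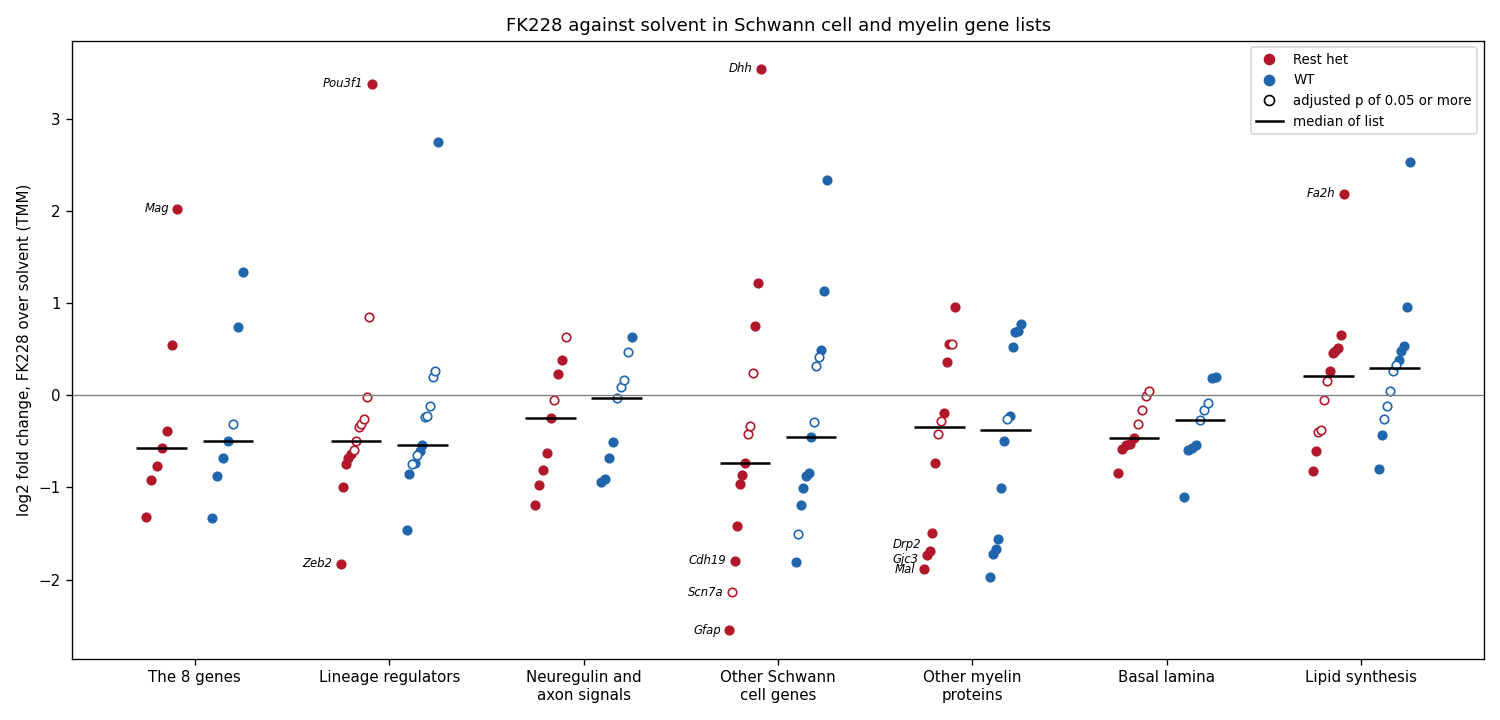
Log2 fold change with FK228 over solvent (TMM scaling) of each gene tested in the 8 genes and 6 Schwann cell and myelin lists (markers of other cell types are not shown), in heterozygous and wild-type cultures. Points are genes, open points had an adjusted p of 0.05 or more, lines are list medians, and names mark genes beyond 1.6 in heterozygous cultures. Dhh (3.54) and Pou3f1 (3.38) are the highest and Gfap (-2.55) the lowest of the genes shown in heterozygous cultures. With spike-in scaling all values of heterozygous cultures lie lower, and the lipid list, which leans up here, has 1 gene that rose and 6 that fell.

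Markers of other cell types moved with FK228 in the same libraries. Macrophage genes summed to 8.55 to 13.8 CPM in heterozygous FK228 libraries, against 55.1 to 104 CPM in heterozygous solvent libraries, and to 15.7 to 21.2 CPM in wild-type FK228 libraries, against 104 to 110 CPM in wild-type solvent libraries. All 5 fell in both genotypes, among them Cd68, C1qa and Csf1r. Mesenchyme genes, made by fibroblasts that can also make PMP22, summed to 2042 to 2344 CPM in heterozygous FK228 libraries, against 3602 to 4952 CPM in heterozygous solvent libraries. In wild type they summed to 1999 to 2533 CPM with FK228, against 3499 to 4545 CPM in solvent. Of 7, 1 rose and 5 fell in heterozygous and 1 rose and 6 fell in wild-type cultures (0 and 6 in heterozygous, 1 and 6 in wild type with spike-in scaling), led by Col3a1 in level, with Col1a2 and Lum. The 8 Schwann cell genes themselves summed to 177 to 218 CPM in heterozygous FK228 libraries, against 358 to 388 CPM in heterozygous solvent libraries, and to 188 to 221 CPM in wild-type FK228 libraries, against 345 to 405 CPM in wild-type solvent libraries. Pmp22 was the largest part of this sum, with 162 of a mean of 372 CPM in wild-type solvent and 64.2 of 202 CPM in wild-type FK228 libraries. Mag and Prx, which rose on this scale, were a small part of it.

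Melanocyte genes, which share Sox10 and Erbb3 with Schwann cells, summed to 286 to 356 CPM in heterozygous FK228 libraries, against 280 to 466 CPM in heterozygous solvent libraries. In wild type they summed to 124 to 235 CPM with FK228, against 275 to 367 CPM in solvent. Of 6 tested (Tyrp1 had too few reads), 1 rose and 1 fell in heterozygous (0 and 2 with spike-in scaling) and 0 rose and 4 fell in wild-type cultures (0 and 4). Kit, a receptor of melanocytes and other cells, fell by 0.66 in heterozygous and 0.75 in wild-type cultures. Mitf, the master factor of melanocytes, rose in heterozygous cultures (0.56, but -0.18 with spike-in scaling) and Dct, an enzyme of pigment synthesis, fell in wild type by 1.13, a call lost in 13 of 16 fits that left out 1 library. Supporting cell genes, S100a1, Gjb2 and Gjb6 the most abundant, summed to 404 to 431 CPM in heterozygous FK228 libraries, against 547 to 748 CPM in heterozygous solvent libraries. In wild type they summed to 318 to 439 CPM with FK228, against 537 to 718 CPM in solvent, and 0 of 7 rose and 4 fell in each genotype (0 and 6 in heterozygous, 0 and 4 in wild type with spike-in scaling).

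Neuron genes, which stand for the axons that Schwann cells wrap, summed to 285 to 375 CPM in heterozygous FK228 libraries, against 144 to 213 CPM in heterozygous solvent libraries. In wild type they summed to 399 to 689 CPM with FK228, against 293 to 483 CPM in solvent. Of 8, 4 rose and 0 fell in heterozygous (2 and 1 with spike-in scaling) and 2 rose and 2 fell in wild-type cultures (2 and 2), with Map2, Nefm and Nefl the most abundant. Between heterozygous and wild-type cultures 0 rose and 5 fell in solvent, beside 2.03% of all genes called. With FK228 0 rose and 2 fell, beside 2.14%. By spike-in scaling 0 rose and 6 fell in solvent, where 296 of all 17125 genes tested were called. With FK228 that scaling gave 0 and 8, where it called 12857 of all 17125 genes and 0.747% of those calls were higher. Hair cell genes (Otof, Pou4f3 and Myo7a the most abundant) summed to 42.6 to 51.3 CPM in heterozygous FK228 libraries, against 56.5 to 83.3 CPM in heterozygous solvent libraries, and to 77.6 to 92.0 CPM in wild-type FK228 libraries, against 100 to 135 CPM in wild-type solvent libraries. Of 6, 0 rose and 1 fell in heterozygous (0 and 5 with spike-in scaling) and 0 rose and 3 fell in wild-type cultures (0 and 4). Oligodendrocytes, the other cells that make Mbp and Mag, were checked by 7 genes, of which 6 were below the filter and were not tested. Nkx2-2 had 0 reads, and Olig2, Mobp and Opalin had at most 2 reads summed over any group. Mog, an outer myelin protein of oligodendrocytes, had 21 reads summed over heterozygous FK228 and 13 over heterozygous solvent libraries, and 40 over wild-type FK228 and 25 over wild-type solvent libraries. Olig1, a factor of the oligodendrocyte lineage, had 17 reads over heterozygous FK228 and 4 over heterozygous solvent libraries, and 18 over wild-type FK228 and 3 over wild-type solvent libraries, so its reads were higher with FK228, as those of Mag were. Myrf, the seventh, rose in wild type (0.82, adjusted p = 0.00419) and with TMM scaling in heterozygous cultures (0.55, adjusted p = 0.0396, but -0.12 with spike-in scaling). The heterozygous call of Myrf was lost in 6 of 16 fits that left out 1 library (adjusted p up to 0.147). It was also lost in 5 of 11 other alternatives, spike-in scaling among them. The part of these other cell types in the results on the 8 genes and on the Schwann cell and myelin lists was not tested.

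**Figure D4:**
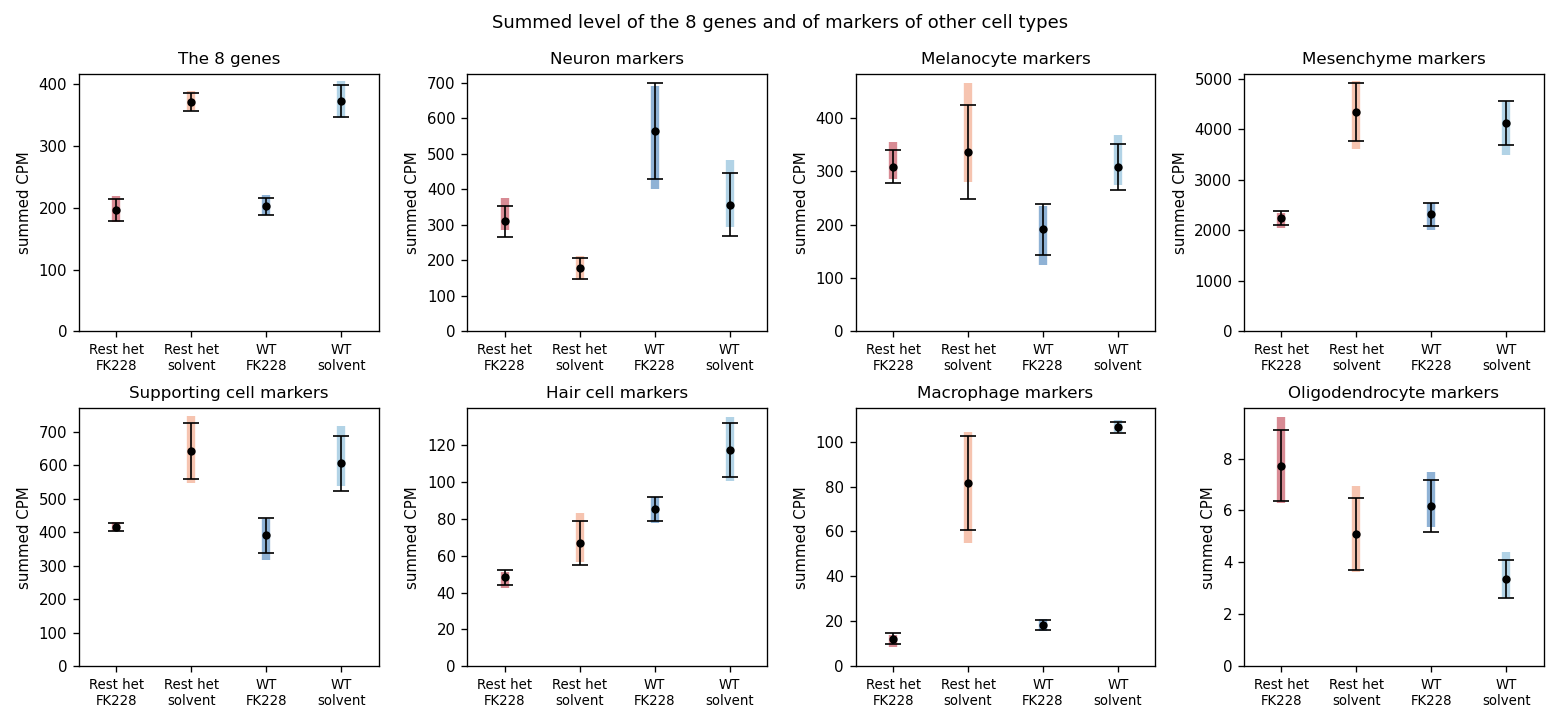
Summed CPM (TMM scaling) of the 8 Schwann cell and myelin genes and of marker genes of 7 other cell types, by group. Thick bars span the lowest to the highest library, and points with error bars are the mean ± SD of 4 libraries. Macrophage and mesenchyme sums are lower with FK228 in both genotypes, as is the sum of the 8 genes, of which Pmp22 is the largest part. The neuron sum, of which Map2, Nefm and Nefl are the largest part, is higher with FK228 in heterozygous cultures. There 4 of its 8 genes rose and the other 4 did not pass.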

How the data were processed

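RNA-seq counts of 16 libraries from 4 groups of 4 were used. For each gene the deposited files give a read count from STAR 2.5.2a, and GRCm38.p4 is the build that the submitters' processing notes name. A second deposited table holds normalized signal, for which those notes name DESeq2. Multiplying its values by 1 factor for each library (0.801 to 1.41) gave a whole read for 100.0% of values (tolerance 0.001 reads), and the count test on those recovered reads called 8297 genes for FK228 in heterozygous and 8394 in wild-type cultures, as the deposited counts did. Unstranded counts were used, since both strand columns held nearly equal shares (49.8% to 49.9% on the first). Spike-in, transgene and summary rows were left out, and reads outside genes made up 10.4% to 20.8%.

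The filter was filterByExpr, with a minimum count of 10 and a total of 15, and the test was the quasi-likelihood test of edgeR 4.0.16 (R 4.3.3), with TMM factors, 1 mean per group over all 16 libraries, and Benjamini-Hochberg adjustment over 17125 genes. An adjusted p under 0.05 was called. Errors of fold changes are SEs, those of levels SDs. A fold change of a low gene depends on the prior count. Gene positions and exon lengths came from GENCODE M21, and promoter windows from RefSeq (GRCm38.p6), which matched 5 of the 8 genes. Tests were tried first on simulated data. Named were the 8 genes, Rest, up to 3 genes per list with the smallest p in each FK228 comparison and up to 3 called in the others, the 3 most abundant markers of each other cell type, and the 3 genes most like Sox10, Mbp and Erbb3. The genes and lists were chosen with earlier results of these data known, so list counts are descriptions. Tried besides were DESeq2 1.42.0, size factors by RLE, testing without a filter, a stricter one (1 CPM in 4 libraries), only the groups compared, a replicate block, spike-in scaling, limma voom 3.58.1, the sex mix or the share of reads outside genes as a covariate, each library left out, and, chosen after seeing the data, the recovered counts. Some genes that the naming rule covers are not reported here.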

Additional observations from a re-analysis of the deposited data

Results flagged for a closer look

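Sox10 in replicate 5 of the heterozygous solvent libraries, at 26.6 CPM, lay far above the other 3 libraries of its group (gap over range 0.848, beyond Dixon's critical value for 4 samples). It was the only one of 28 gene and group combinations to do so, and chance alone marks about 1 in 20.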

How the results depend on the processing

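The counts of the 7 tested genes called for FK228 stayed at 6 or 7 in heterozygous and at 6 in wild-type cultures under every alternative run, and genotype counts stayed at 0 except with spike-in scaling. Leaving out 1 library gave 6 to 7 genes called for FK228 in heterozygous and 6 in wild-type cultures, and 0 for genotype in solvent, with FK228 and for the interaction. With spike-in scaling, the genotype comparison with FK228 called 7 genes and the interaction 2, beside 12857 and 4069 of all 17125 genes tested. The same scaling reversed Pmp22 between genotypes with FK228 (-0.75, adjusted p = 0.00182), Prx with FK228 in heterozygous cultures (-0.16, adjusted p = 0.505) and Prx between heterozygous cultures with FK228 and wild type in solvent (-0.18, adjusted p = 0.427). It also made 7.003% of calls higher, in place of 49.03% with TMM scaling, for FK228 in heterozygous cultures, 30.8% in place of 48.4% in wild type, 35.1% in place of 59.4% for genotype in solvent and 0.747% in place of 56.6% with FK228. Why the spike-in share differed was not tested. Prx with FK228 in heterozygous cultures also missed the threshold with no filter (adjusted p = 0.0523). With the replicate block, 7 genes were called for FK228 in heterozygous and 6 in wild-type cultures. Same-numbered libraries correlated between -0.21 and 0.14 in their deviations from group means, and differently numbered ones between -0.26 and 0.31. The labels do not say what the numbers mark, and so few libraries cannot settle whether any were paired. Over all genes the replicate block gave 7376 and 6771 calls for FK228, 211 (solvent) and 107 (with FK228) for genotype and 0 for the interaction. For genotype and the interaction there were 347, 366 and 4 without the block, and 550, 638 and 16 with DESeq2. Of 784 values with 1 library left out 767 stayed on their side of the threshold and 17 lost it; 33 of the 767 changed sign, all called in neither fit, Mbp with FK228 in wild type among them. Of 532 under other alternatives 511 stayed on their side (15 changed sign, called in neither fit), 9 lost it, 9 gained it and the 3 above reversed. Depth limits Foxd3 and Mag, with 3 and 55 reads at most.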
